A study of Mus musculus with 8 samples.

Results

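The 9 genes described here are used as marks of blood monocytes and of cells newly recruited to a tissue: Ly6c2, Plac8, Chil3, Ms4a4c, Hp, Fn1, Vcan, Ace and Spn. They were picked by symbol from a table of 15867 genes, and all 9 were present and passed the minimum mean of 10 normalized counts that 15862 genes passed. The libraries came from F4/80-positive cells of the fat of mice fed a high-fat diet for 20 weeks. F4/80 is a surface protein of mouse macrophages. Both groups, of 4 samples each, were homozygous for loxP-flanked Mirc11 and Mirc22, the loci of microRNAs of the families miR-23, miR-24 and miR-27 (Mirc11fl/fl Mirc22fl/fl). Controls were Lyz2+/+ and had no Cre, while knockout mice were Lyz2Cre/Cre, so that Cre replaced both copies of the lysozyme gene. Lyz2-Cre is active in macrophages, monocytes and neutrophils. No samples had Cre with intact clusters, so effects of the clusters, of Cre and of the loss of Lyz2 cannot be told apart. Samples are labelled as separate replicates without a statement that each was 1 mouse, so the p-values speak only for the spread among these 8 samples.

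Monocytes leave the bone marrow as classical cells that carry Ly6C on their surface. Some turn in the blood into nonclassical, patrolling cells with little Ly6C, and others enter tissues and become macrophages. In obesity the fat takes up many monocytes, which replace Ly6C and other monocyte transcripts with macrophage transcripts as they mature.

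Library size ranged from 31789395 to 46621080 recovered reads. As a check of the genotype, Lyz2 stood at 156727 to 204853 normalized counts in controls and at 174 to 273 in knockouts. All 10 macrophage markers were measured, and their summed level was 346403 to 506861 in controls and 309923 to 333826 in knockouts, without overlap. Of the 15 neutrophil markers, 7 had no row in the table used here, among them Ly6g, Elane and Mpo. In these bulk samples fewer cells of a type and less RNA per cell cannot be told apart.

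None of the 9 genes passed an adjusted p of 0.05 in limma, in which 3.61% of all genes passed, 1.24% higher and 2.38% lower in the knockout, and none passed in edgeR, in which 3.51% passed. At an unadjusted p under 0.05, 8 of the 9 passed in limma, against 21.2% of all genes, and 7 of them were higher in the knockout, against 10.8% of all genes. DESeq2 on the recovered reads called Plac8, Chil3 and Ace, all higher, and 10.9% of all genes, and 4.66% of all genes as higher. The authors' deposited table is itself a DESeq2 comparison of the same samples and so not a separate test. It gave the same 3 calls among the 9, and called 10.9% of all genes, with 4.65% higher. In these 3 genes, too, every knockout sample lay above every control sample, which held for 5.52% of all genes in that direction and, either way, for 13.7%. The sign of the difference was positive in 7 of the 9, against 50.5% of all genes, and the median log2 difference (knockout minus control) of the 9 was 0.44, beside 0.00 over all genes. The 9 genes were chosen with earlier results of these data known, so these counts describe them and do not test them as a set.

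**Figure D1:**
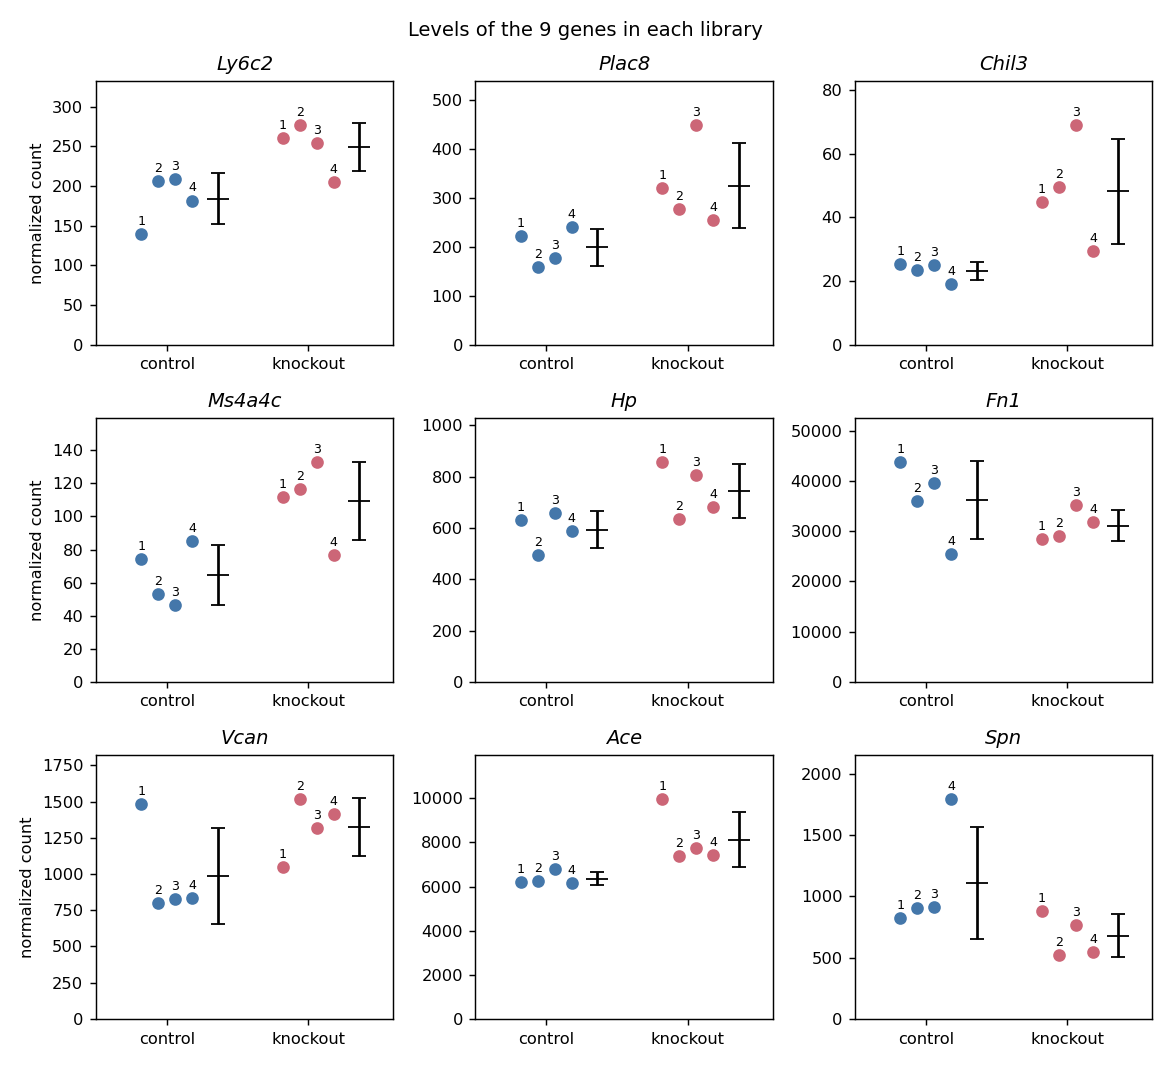
Normalized counts of each of the 9 genes (linear axes from 0) in the 4 control and 4 knockout libraries. Points are libraries with their replicate number, and the bar beside them is the mean with 1 SD; Plac8, Chil3 and Ace are the genes whose groups do not overlap.

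Levels were compared between genes as mean normalized counts per kilobase of the longest coding transcript. In controls the order was Fn1 at 4358 ± 943 (SD, n = 4), Ace at 1296 ± 57.4, Hp at 441 ± 53.9, Spn at 296 ± 122, Ly6c2 at 224 ± 39.4, Plac8 at 163 ± 30.9, Vcan at 79.3 ± 26.8, Ms4a4c at 37.6 ± 10.4 and Chil3 at 15.1 ± 1.91. Among neighbours in that order, the SD ranges of Hp and Spn, of Spn and Ly6c2 and of Ly6c2 and Plac8 overlapped. In knockouts Spn, at 181 ± 46.6, stood below Ly6c2 at 303 ± 37.4 and Plac8 at 265 ± 71.0, and the others kept their order.

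Ly6c2, Plac8, Ms4a4c and Chil3 are the markers of classical monocytes proper. Ly6c2 encodes the Ly6C antigen itself, a small protein tethered to the membrane by a lipid anchor. It lies on chr15:75108158-75111970 (mm10, minus strand, 4 exons in its longest coding transcript). Plac8 encodes a small cysteine-rich protein of myeloid and other blood cells, on chr5:100553725-100572245 (minus strand, 5 exons). Ms4a4c encodes a membrane protein of the MS4A family that is also found in monocytes, on chr19:11404770-11427246 (plus strand, 7 exons). Chil3 encodes the secreted chitinase-like protein Ym1, known from alternatively activated macrophages, neutrophils and monocytes, on chr3:106147554-106167564 (minus strand, 11 exons).

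The start regions of these 4 genes are shown because they are the classical markers and because all 4 had their lowest knockout value in the same library, replicate 4. Each is the RefSeq window (GRCm38.p6) from 250 bases before to 50 after an annotated start, read along the gene. Capitals mark the PU box core GAGGAA on either strand (TTCCTC on the other), the letters at the heart of many sites of the myeloid factor PU.1.
Ly6c2, chr15:75111922-75112221: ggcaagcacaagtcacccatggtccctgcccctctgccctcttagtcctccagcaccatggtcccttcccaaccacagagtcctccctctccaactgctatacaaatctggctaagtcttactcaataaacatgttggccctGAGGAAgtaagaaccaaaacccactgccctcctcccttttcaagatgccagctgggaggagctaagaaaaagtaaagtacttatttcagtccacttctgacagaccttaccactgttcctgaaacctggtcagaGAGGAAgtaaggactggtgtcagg
Plac8, chr5:100572156-100572455: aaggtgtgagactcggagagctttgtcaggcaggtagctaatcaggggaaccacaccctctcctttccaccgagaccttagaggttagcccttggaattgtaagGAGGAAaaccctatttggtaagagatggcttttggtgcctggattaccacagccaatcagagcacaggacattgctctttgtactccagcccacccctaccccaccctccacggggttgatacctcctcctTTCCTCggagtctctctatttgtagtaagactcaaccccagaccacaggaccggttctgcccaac
Ms4a4c, chr19:11407411-11407710: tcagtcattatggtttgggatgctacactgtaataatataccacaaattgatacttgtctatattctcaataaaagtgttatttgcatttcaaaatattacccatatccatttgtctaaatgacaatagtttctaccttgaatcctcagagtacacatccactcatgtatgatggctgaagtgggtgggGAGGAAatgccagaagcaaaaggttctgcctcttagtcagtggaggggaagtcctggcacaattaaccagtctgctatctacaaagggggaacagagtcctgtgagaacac
Chil3, chr3:106167515-106167814: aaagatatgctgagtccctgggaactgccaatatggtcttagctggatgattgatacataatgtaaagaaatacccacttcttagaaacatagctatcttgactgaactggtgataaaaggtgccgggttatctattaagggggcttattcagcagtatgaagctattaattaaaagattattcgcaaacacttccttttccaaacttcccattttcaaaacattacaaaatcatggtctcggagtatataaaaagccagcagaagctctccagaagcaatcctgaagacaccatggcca
Windows were found for 7 of the 9 genes, 10 windows in all, and none for Hp or Fn1. The core was in 5 windows of 4 genes, namely both windows of Ly6c2, 1 of 2 of Plac8, that of Ms4a4c and 1 of 2 of Ace, and the window of Chil3 held none. It was in 28.3% of all 32851 windows, so a match is a common event and describes the letters only. The letters TATAAA, searched on both strands, were in the windows of Chil3 and 1 of Ace and in 13.6% of all windows.

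Ly6c2 stood at 139, 206, 209 and 182 normalized counts across control libraries 1 to 4 and at 260, 277, 254 and 205 across knockout libraries 1 to 4. Knockout replicates 1 to 3 lay above every control, and knockout replicate 4 lay among the controls. The means were 184 ± 32.4 and 249 ± 30.7 (SD, n = 4 each), a log2 difference of 0.44 (SE 0.15, 95% interval 0.09 to 0.79, limma adjusted p = 0.150). Part of its sequence is shared, since 21.4% of its 31-base words also occur in Ly6c1, the Ly6C gene found at high levels in endothelial cells. The sources used here do not say how reads common to both were divided, so the Ly6c2 level is uncertain. Ly6c2 made up 3.40% to 4.39% of the summed Ly6c1 and Ly6c2 counts in controls and 2.89% to 4.58% in knockouts. Ly6c1 itself was 4738 ± 654 in controls and 6366 ± 555 in knockouts, a log2 difference of 0.43 (SE 0.10, adjusted p = 0.0589 in limma and 0.00387 in DESeq2).

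Plac8 was measured at 221, 159, 176 and 240 normalized counts across control libraries 1 to 4 and at 319, 277, 449 and 254 across knockout libraries 1 to 4. The groups did not overlap, with knockout replicate 3 far above the rest and knockout replicate 4 close to the highest control. Means of 199 ± 37.8 and 325 ± 86.9 gave a log2 difference of 0.69 (SE 0.20, 95% interval 0.24 to 1.14), with adjusted p = 0.0969 in limma and 0.0188 in DESeq2. None of its 31-base words occurred in another gene.

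Ms4a4c gave 74.5, 52.9, 46.6 and 84.9 normalized counts across control libraries 1 to 4 and 112, 116, 133 and 76.9 across knockout libraries 1 to 4. Knockout replicate 4 lay below control replicate 4, the only overlap. The means of 64.7 ± 18.0 and 109 ± 23.5 differed by 0.76 on the log2 scale (SE 0.24, 95% interval 0.22 to 1.31, limma adjusted p = 0.117). Of its 31-base words 17.1% also occur in other genes, most of them in Ms4a4b, a gene known from T cells, which was at 82.0 ± 30.3 in controls and 132 ± 21.4 in knockouts (log2 difference 0.73, limma adjusted p = 0.131). The pseudogene Gm5692 overlaps Ms4a4c on the other strand, and the sources used here do not say whether counting used strand.

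Chil3 had the largest difference and the lowest counts of the 9. Its values were 25.4, 23.4, 25.0 and 19.0 normalized counts across control libraries 1 to 4 and 44.8, 49.5, 69.1 and 29.3 across knockout libraries 1 to 4. All knockouts lay above all controls, the nearest again being knockout replicate 4. The means of 23.2 ± 2.94 and 48.2 ± 16.4 correspond to a ratio of 2.08 and to a log2 difference of 0.97 (SE 0.27, 95% interval 0.37 to 1.57), with adjusted p = 0.0841 in limma and 0.0286 in DESeq2. These values rest on 19 to 65 reads, and the lowest carries a counting error of 22.9%. Of its 31-base words 41.5% also occur in other genes, and 28.9% in Chil4, which had no row in the table used here. As for Ly6c2, how shared reads were divided is not stated, so the Chil3 level is uncertain.

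Hp, Fn1 and Vcan encode secreted proteins. Haptoglobin (Hp) binds free hemoglobin, is stored in the granules of myeloid cells and is also made by adipocytes. Hp lies on chr8:109575128-109579172 (mm10, minus strand, 5 exons). It stood at 632, 493, 658 and 588 normalized counts across control libraries 1 to 4 and at 857, 634, 808 and 680 across knockout libraries 1 to 4. The groups overlapped through knockout replicate 2. Means of 593 ± 72.6 and 745 ± 105 differed by 0.33 on the log2 scale (SE 0.12, 95% interval 0.05 to 0.61, limma adjusted p = 0.180). The summed level of 10 adipocyte markers ranged over 3234 to 4631 in controls and 4602 to 5427 in knockouts. Like Hp, the sum was highest in knockout replicate 1. It was 4990 in knockout replicate 2, the knockout with the lowest Hp, and 4427 in control replicate 2, the library with the lowest Hp. None of these markers passed limma (2 at an unadjusted p under 0.05, 0 in edgeR, 2 in DESeq2). Their part in the Hp difference was not tested.

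Fn1 encodes fibronectin, an adhesive matrix protein made by fibroblasts and by monocytes and macrophages, on chr1:71585520-71653200 (minus strand, 46 exons). It was the most abundant of the 9, at 43796, 36116, 39575 and 25455 normalized counts across control libraries 1 to 4 and 28397, 29050, 35161 and 31832 across knockout libraries 1 to 4. Control replicate 4 was the lowest of all 8 libraries, and the other 3 controls lay above every knockout. The means of 36236 ± 7843 and 31110 ± 3084 gave a log2 difference of -0.20 (SE 0.16, 95% interval -0.56 to 0.16, limma adjusted p = 0.522). The antisense gene Apol7d overlaps it.

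Vcan encodes versican, a large hyaluronan-binding proteoglycan of the matrix that monocytes express strongly, on chr13:89655312-89742509 (minus strand, 15 exons), with Gm4117 and Gm16318 on the other strand. It was at 1484, 797, 824 and 836 normalized counts across control libraries 1 to 4 and at 1047, 1516, 1320 and 1414 across knockout libraries 1 to 4. Control replicate 1 lay among the knockouts, and the other 3 controls lay below all of them. The means of 985 ± 333 and 1324 ± 202 differed by 0.47 on the log2 scale (SE 0.20, 95% interval 0.00 to 0.93, limma adjusted p = 0.233). Without control replicate 1 the difference was 0.68 (SE 0.12), and Vcan then passed limma with adjusted p = 0.0348.

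Fibroblasts make both matrix proteins. The summed level of 12 fibroblast markers was 199305 in control replicate 1, against 121024 to 152538 in the other controls. That library had the highest Vcan and Fn1 of the controls. In knockouts the sum was 164302 to 247783, highest in replicate 3, the knockout with the highest Fn1. Vcan was highest in knockout replicate 2, where the sum was 174885. The difference of Fn1 was negative. All 12 fibroblast markers had a positive difference, with a median of 0.35 on the log2 scale, and none passed limma (5 at an unadjusted p under 0.05, 0 in edgeR, 1 in DESeq2). Collagen genes led them in abundance, with Col3a1 at 54903 ± 12241 in controls and 75438 ± 18411 in knockouts. The part of fibroblast RNA in the Vcan and Fn1 values was not tested.

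Ace and Spn are known from nonclassical monocytes. Ace encodes angiotensin-converting enzyme, a membrane peptidase of endothelium and of patrolling monocytes, on chr11:105967945-105989964 (plus strand, 25 exons), with Gm11651 antisense to it. Its values were 6223, 6263, 6779 and 6175 normalized counts across control libraries 1 to 4 and 9960, 7387, 7734 and 7453 across knockout libraries 1 to 4. The groups did not overlap, and knockout replicate 1 stood far above the other knockouts. The means of 6360 ± 282 and 8133 ± 1227 gave a ratio of 1.28 and a log2 difference of 0.34 (SE 0.10, 95% interval 0.13 to 0.56), with adjusted p = 0.0860 in limma and 0.0134 in DESeq2. The summed level of 12 endothelial markers ran from 77305 (replicate 1) to 132339 (replicate 2) in controls, where Ace was 6223 and 6263. In knockouts the sum ran from 122292 to 171142, highest in replicate 1 as well. It was 165177 in knockout replicate 4, where Ace was 7453. All 12 endothelial markers had a positive difference (median 0.50 on the log2 scale), and none passed limma (9 at an unadjusted p under 0.05, 0 in edgeR, 4 in DESeq2). Their part in the Ace difference was not tested.

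Spn encodes CD43, a long sialic acid-rich surface protein of leukocytes that is high on nonclassical monocytes and on T cells, on chr7:127132232-127137823 (minus strand, 2 exons). It stood at 826, 905, 915 and 1791 normalized counts across control libraries 1 to 4 and at 881, 521, 766 and 544 across knockout libraries 1 to 4. Control replicate 4 stood far above the other controls, and knockout replicate 1 lay within the range of the controls. Means of 1109 ± 456 and 678 ± 175 differed by -0.67 on the log2 scale (SE 0.26, 95% interval -1.27 to -0.07, limma adjusted p = 0.193). Leaving out control replicate 4 left a difference of -0.41. Spn and Ace, both known from the same monocyte class, thus had differences of opposite sign.

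**Figure D2:**
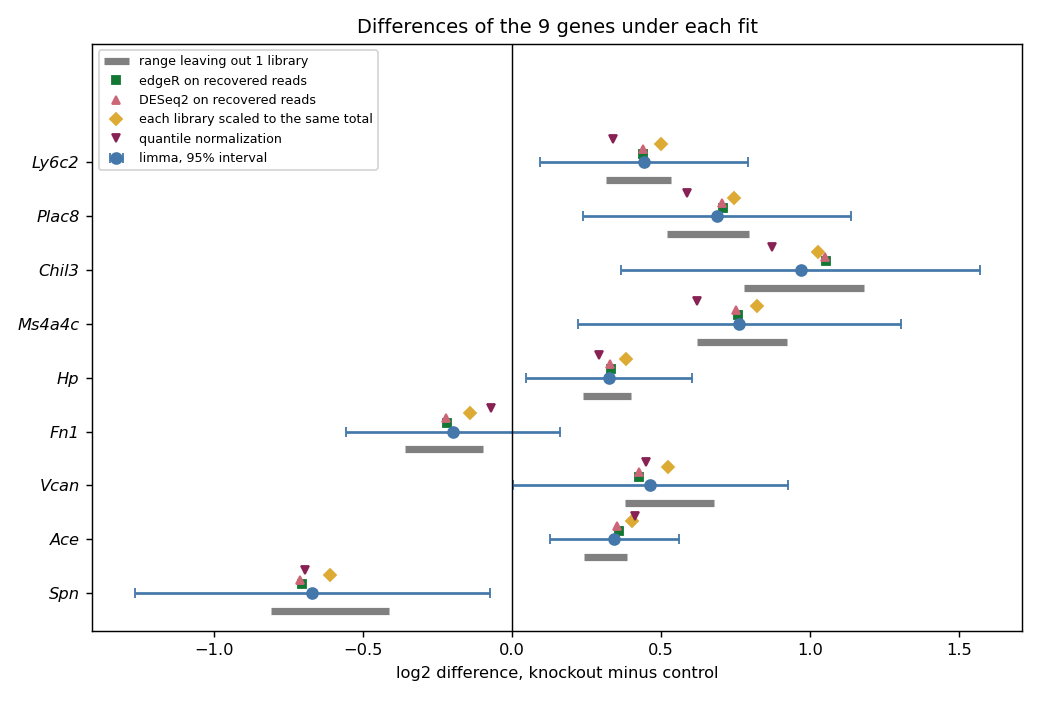
Log2 differences (knockout minus control) of the 9 genes. Circles and bars give the limma estimate with its 95% interval, other symbols the same difference in edgeR, in DESeq2 and with 2 other scalings, and grey bars the range when 1 library is left out; no gene changes sign.

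The libraries at the extremes of each group are listed here. With 4 libraries a group some recurrence is expected, and the share over all genes was not computed. Knockout replicate 4 was the lowest knockout for Ly6c2, Plac8, Chil3 and Ms4a4c, and knockout replicate 3 the highest for Plac8, Chil3 and Ms4a4c. Knockout replicate 1 was the highest for Hp, Ace and Spn and the lowest for Fn1 and Vcan. Control replicate 4 was the lowest control for Chil3, Fn1 and Ace and the highest for Plac8, Ms4a4c and Spn.

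**Figure D3:**
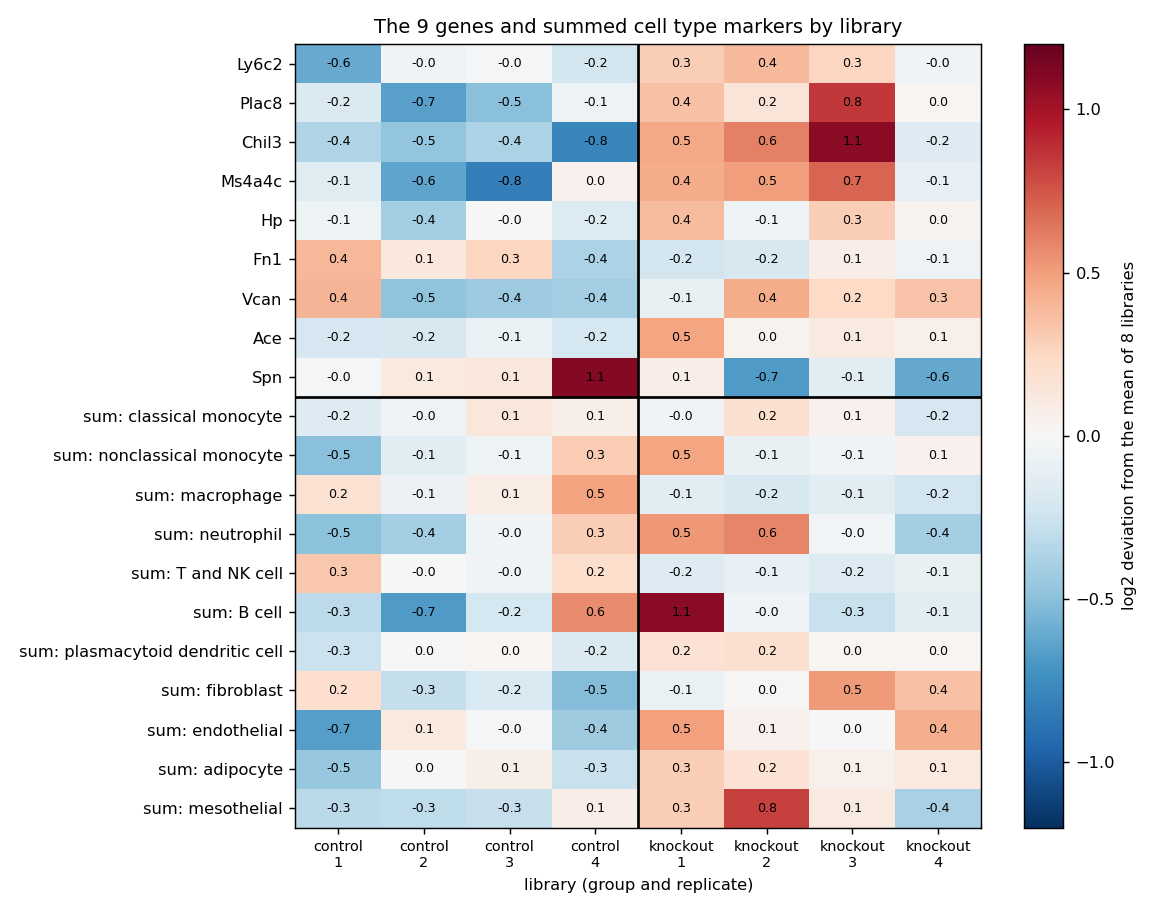
Log2 deviation of each library from the mean of the 8 for the 9 genes (upper block) and for the summed normalized counts of marker lists of 11 cell types (lower block). Il7r made up most of the T and NK cell sum. Blue is below and red above the mean; knockout replicate 3 is highest for Plac8, Chil3 and Ms4a4c, and knockout replicate 1 for the B cell and endothelial sums.

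Likeness to other genes was measured as the root mean square difference between the log2 deviations of 2 genes over the 8 libraries, among genes with a mean of at least 50. Plac8 was closest to Ms4a4c, at 0.18, and Ms4a4c was closest to Nxpe5, at 0.16, with Plac8 next. Nxpe5 was at 1386 in controls and 2304 in knockouts and passed limma (log2 difference 0.76, adjusted p = 0.0470). Chil3 was closest to Tnfrsf11b, at 0.21, a gene that was also second for Plac8 and that encodes the decoy receptor osteoprotegerin. Ly6c2 was closest to Olfr1372-ps1 (0.08), Fn1 to Cep55 (0.07), Vcan to Efemp1 (0.10), Ace to Slco3a1 (0.07) and Spn to H2-DMb1 (0.17). Group means enter this measure, so genes that differ between groups to a like degree come out close.

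Of 14 further markers of classical monocytes, none rose and 2 fell in limma and in edgeR, while DESeq2 called 1 higher and 6 lower. At an unadjusted p under 0.05 in limma 1 was higher and 6 were lower, against 21.2% of all genes in either direction. The groups did not overlap for 5, all lower in the knockout, against 13.7% of all genes in either direction. The differences were positive for 7 and negative for 7, with a median of -0.02. S100a4, a calcium-binding protein of motile cells, fell from 4333 ± 491 to 2016 ± 356 (log2 difference -1.11, SE 0.13, limma adjusted p = 0.00526). F10, coagulation factor X, fell from 908 ± 83.8 to 557 ± 101 (log2 difference -0.72, limma adjusted p = 0.0258), a call that was lost in 5 of the 8 fits with 1 library left out, those without control replicates 2, 3 or 4 or knockout replicates 1 or 2 (adjusted p up to 0.0755). Ccr2, the receptor that lets classical monocytes leave the marrow, was at 1954 ± 132 and 1651 ± 38.3 without overlap of the groups (log2 difference -0.24, adjusted p = 0.0598 in limma and 0.00675 in DESeq2). It was named after its values were seen. F13a1, the most abundant of the list, was at 21178 ± 5557 and 26318 ± 7277 (limma adjusted p = 0.513). The summed level of the 14 was 54385 to 66471 in controls and 52699 to 69208 in knockouts, so the groups overlapped.

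Of 12 further markers of nonclassical monocytes, none passed limma (2 higher at an unadjusted p under 0.05, 0 called in edgeR, 1 in DESeq2), and their median difference was 0.26. Ear2, an eosinophil-type ribonuclease, came nearest, at 311 ± 74.2 and 543 ± 113 without overlap of the groups (log2 difference 0.81, adjusted p = 0.0519 in limma and 0.00230 in DESeq2). Pglyrp1, which binds bacterial cell walls, was at 45.1 ± 9.32 and 66.3 ± 11.1 (log2 difference 0.56, limma adjusted p = 0.173). Of 11 transcription factors of monocytes none passed limma (2 higher and 4 lower at an unadjusted p under 0.05, 0 in edgeR, 3 lower in DESeq2). The factor Cebpa stood at 11925 ± 1735 and 9103 ± 699 (adjusted p = 0.0831 in limma and 0.0094 in DESeq2). Irf8 stood at 7419 ± 1019 and 5818 ± 435 (adjusted p = 0.0885 in limma and 0.0154 in DESeq2).

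Among 13 genes that attract monocytes or let them adhere, 2 rose and 2 fell in limma. Ccl2, the main ligand of Ccr2, rose from 805 ± 51.6 to 1328 ± 162 (log2 difference 0.72, SE 0.09, limma adjusted p = 0.00641) and held with any 1 library left out. Csf1, the growth factor of monocytes and macrophages, rose from 1722 ± 59.5 to 2141 ± 104 (log2 difference 0.31, limma adjusted p = 0.0187), a call lost in 4 of 8 fits, those without control replicate 3 or knockout replicates 1, 3 or 4 (adjusted p up to 0.0594). Both were named after their values were seen. The integrin chains Itga4 and Itgb2, by which monocytes hold to endothelium, fell. Itga4 went from 4442 ± 532 to 2401 ± 120 (log2 difference -0.88, limma adjusted p = 0.00220) and Itgb2 from 31005 ± 1489 to 20925 ± 1380 (log2 difference -0.57, limma adjusted p = 0.00549), and both calls held with any 1 library left out.

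The relatives of the members were counted by family. All 5 other Ly6 genes measured had a positive difference, with a median of 0.50, also under the 2 other scalings, and Ly6a passed limma. Ly6a, which encodes the Sca-1 antigen of stem and endothelial cells, rose from 4285 ± 242 to 6158 ± 737 (log2 difference 0.52, limma adjusted p = 0.0168), and lost the call, among the fits with 1 library left out, in that without control replicate 3 (adjusted p = 0.0609). Ly6i, a gene of inflammatory macrophages, was at 5.73 to 19.0 in controls and 7.08 to 126 in knockouts, with 126 in knockout replicate 3, the library that was also highest for Plac8, Chil3 and Ms4a4c. Of 10 other Ms4a genes 5 were positive and 5 negative and none passed limma (1 higher and 2 lower at an unadjusted p under 0.05, 0 in edgeR, 2 lower in DESeq2). Ms4a7, a macrophage gene, was at 7210 ± 967 and 5687 ± 208 (log2 difference -0.33, adjusted p = 0.0801 in limma and 0.00975 in DESeq2). Ms4a4a was at 1047 ± 130 and 712 ± 163 (log2 difference -0.57, adjusted p = 0.0922 in limma and 0.0178 in DESeq2). The chitinase-related genes Ctbs and Chid1 were at 950 and 873 and at 1218 and 1227, with limma adjusted p of 0.314 and 0.927. Of 9 genes of alternative activation, the state Chil3 is known from, Arg1 rose from 165 ± 60.4 to 506 ± 138 (log2 difference 1.63, limma adjusted p = 0.0146), a call lost, among the fits with 1 library left out, in that without control replicate 3 (adjusted p = 0.0563). The other 8 did not pass limma (of the 9, 3 were higher at an unadjusted p under 0.05, 1 in edgeR, 2 in DESeq2). Clec10a came nearest, at 11839 ± 2449 and 19104 ± 2870 without overlap of the groups (log2 difference 0.70, adjusted p = 0.0508 in limma and 0.000715 in DESeq2). It passed limma with equal totals (adjusted p = 0.0444) and quantile normalization (adjusted p = 0.0445).

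**Figure D4:**
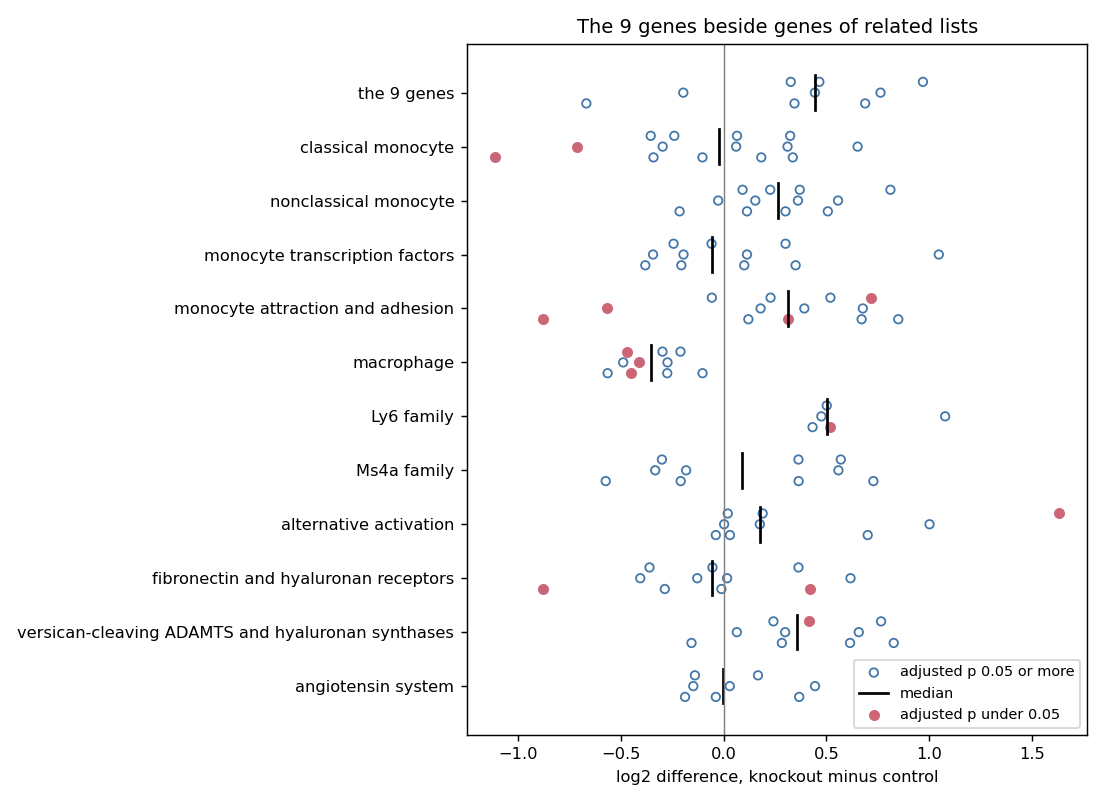
Log2 differences (knockout minus control) of the 9 genes and of genes in 11 related lists that exclude them. Each point is a gene, filled where limma gave an adjusted p under 0.05, and the bar is the list's median, which is 0.44 for the 9 genes and -0.02 for the classical monocyte list.

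Partners of the secreted members were examined in the same way. Of 11 receptors for fibronectin or hyaluronan and related genes, Itga4 fell and Itgb3 rose in limma. Itgb3 went from 410 ± 12.5 to 550 ± 51.8 (log2 difference 0.42, limma adjusted p = 0.0307), a call lost in 6 of 8 fits with 1 library left out (adjusted p up to 0.0874), lost under quantile normalization (adjusted p = 0.0595) and kept without control replicate 1 or knockout replicate 2. Of 10 genes for enzymes that cut versican or make hyaluronan or for a link protein, 9 had a positive difference (8 with quantile normalization; median 0.36), and Adamts15 rose from 1169 ± 110 to 1556 ± 122 (log2 difference 0.41, limma adjusted p = 0.0329), which was lost in 6 of 8 such fits (adjusted p up to 0.0907) and kept without control replicate 2 or knockout replicate 2. None of 8 genes of hemoglobin and heme handling passed limma (2 lower at an unadjusted p under 0.05, 1 lower in edgeR, 3 lower in DESeq2). Lrp1, the receptor for heme bound to hemopexin, was at 115960 ± 6359 and 89168 ± 4872 (adjusted p = 0.0510 in limma, 0.0266 in edgeR and 4.34e-07 in DESeq2). None of 8 other angiotensin system genes passed limma (1 higher and 1 lower at an unadjusted p under 0.05, 0 in edgeR, 0 in DESeq2). None of 8 partners or relatives of CD43 passed either (2 higher and 1 lower at an unadjusted p under 0.05, 0 in edgeR, 1 higher in DESeq2).

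Several other cell types express these monocyte genes. Neutrophils make Chil3 and Hp, and the summed level of the 8 neutrophil markers measured was 1442 to 2485 in controls and 1534 to 3048 in knockouts, highest in knockout replicate 2 and lowest among knockouts in replicate 4. Of these 8, 5 had a positive and 3 a negative difference, with a median of 0.09, and Csf3r was the most abundant, at 1200 ± 421 and 1251 ± 290. Mmp9, the one with the smallest p, was at 232 ± 63.1 and 599 ± 285 without overlap (log2 difference 1.27, limma adjusted p = 0.0805), and none of the 8 passed (1 at an unadjusted p under 0.05, 0 in edgeR, 1 in DESeq2). S100a8, S100a9 and Mmp8 were close to the minimum mean of 10, at 19.8, 14.8 and 10.3 in controls and 15.9, 20.8 and 11.4 in knockouts. Lcn2 was 881 in knockout replicate 2, where the sum was highest, and 39.5 to 188 in the other knockouts. Lcn2, S100a8, S100a9 and Mmp8 were named after their values were seen. Plasmacytoid dendritic cells carry Plac8 and Ly6C, and the summed level of their 7 measured markers was 7165 to 8706 in controls and 8707 to 9803 in knockouts. Tcf4, which many cell types express, made up most of that sum, at 7095 ± 559 and 7746 ± 455 (limma adjusted p = 0.330). Of the 7 markers 5 had a positive and 2 a negative difference (median 0.15), and none passed limma (1 at an unadjusted p under 0.05, 0 in edgeR, 1 in DESeq2). T and NK cells carry Spn and Ly6C. Of their 13 markers 12 had a positive difference, and the median of the 13 was 0.94 on the log2 scale. None passed limma (5 higher and 1 lower at an unadjusted p under 0.05, 0 in edgeR, 1 lower in DESeq2). The sum was 5158 to 6628 in controls and 4756 to 4997 in knockouts. Il7r made up most of it, at 5102 ± 674 and 3746 ± 635, and was the only marker with a negative difference. The sum therefore mainly describes Il7r. All 8 B cell markers had a positive difference (median 0.51), with a sum of 7517 to 17824 in controls and 10047 to 25524 in knockouts, and none passed (0 at an unadjusted p under 0.05, 0 in edgeR or DESeq2). The part of these cells in the values of the 9 genes was not tested.

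The microRNAs encoded by the 2 deleted loci act through their seed, bases 2 to 8, which pairs with the complementary word in a target's 3′ UTR. Their mature sequences from RefSeq (GRCm38.p6) are shown with the seed in capitals, and miR-27a and miR-27b share one seed. That of miR-23b is not shown.
mmu-miR-23a-3p: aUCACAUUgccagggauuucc
mmu-miR-27a-3p: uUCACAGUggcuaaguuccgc
mmu-miR-27b-3p: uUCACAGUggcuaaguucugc
mmu-miR-24-3p: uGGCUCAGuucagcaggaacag
The 7-base matches AATGTGA for miR-23, ACTGTGA for miR-27 and CTGAGCC for miR-24 were searched on the transcript strand in the longest annotated 3′ UTR of each gene (GENCODE M21) and occurred in 16.8%, 17.8% and 19.2% of 14796 UTRs. Among the 9 genes, only Vcan, Spn and Ace held any of them, and these sites are shown with the match in capitals.
Vcan, miR-23: gtatagtgtaaAATGTGAatggctttttt
Spn, miR-23: agaagaatgcaAATGTGAtggggactaaa
Spn, miR-27: ctcttgggtgaACTGTGAcctgtgacttt
Ace, miR-24: acataccctagCTGAGCCttcctcctttg
The Vcan site starts at base 1819 of a UTR of 1919 bases and is the only one of the 4 with the further A that makes an 8-base match. UTRs of like length held the miR-23 match in 20.8% of cases for Vcan and 25.0% for Spn, whose UTR has 2444 bases. The miR-27 match stood in 26.3% of UTRs of like length to that of Spn, and the miR-24 match in 14.4% of those like that of Ace. Of the 3 genes with a match, Vcan and Ace had positive and Spn a negative difference, and none passed limma, while Ly6c2, Plac8, Chil3 and Ms4a4c had no match in these UTRs. A match describes the letters and does not show that a microRNA binds there.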

How the data were processed

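The authors deposited a table of normalized counts with a column per sample (unit signal). Build mm10 and the tools cutadapt, FastQC, Salmon and DESeq2 are named, without versions or roles, in the submitters' processing notes. A second deposited table held, per the file headers, the mean signal, the log2 fold change of control over knockout (sign turned here), p-values, and as score columns the error and the test statistic of a DESeq2 comparison. Within 0.01 reads, 100.0% of the values were whole multiples of 1 factor per sample, which gave reads for count models. In control replicate 4 the factor is close to 1, so this cannot be told from rounding there. The smallest value in every library is 1 read, not 0.

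The test was limma 3.58.1 (R 4.3.3; eBayes with trend, two-sided, Benjamini-Hochberg over 15862 genes with a mean of at least 10) on log2(value + 1), which understates differences of low genes. Alternatives were edgeR 4.0.16 (quasi-likelihood, TMM) and DESeq2 1.42.0 on the recovered reads, pseudocounts of 0.5 and 5, no filter, a mean of at least 50, equal totals, quantile normalization, a replicate block and leaving out each library. Positions and UTRs came from GENCODE M21. The labels name no batch. Counting errors cover counting only. The 9 genes and all lists were chosen with earlier results of these data known. Named beside the 9 were each list's 2 genes of smallest p and its most abundant one, close paralogs, and the gene most like each of the 9, and other names are said to be later choices. Not every gene the rule names is printed, and the one most like Hp is not reported here. The test scripts were tested on simulated data.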

Additional observations from a re-analysis of the deposited data

Results flagged for a closer look

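In groups of 4, a library was set apart where its gap to the nearest of the others exceeded 0.829 of the group's range. This was the case in 6 of 42 groups of values examined, and chance alone gives about 1 in 20. Vcan was 1484 in control replicate 1, against 797 to 836 in the other controls. Ace was 6779 in control replicate 3, against 6175 to 6263 in the other controls. It was 9960 in knockout replicate 1, against 7387 to 7734 in the other knockouts. Spn was 1791 in control replicate 4, against 826 to 915 in the other controls. The summed B cell markers stood at 25524 in knockout replicate 1, against 10047 to 11743 in the other knockouts. The summed mesothelial markers stood at 682 in control replicate 4, against 515 to 532 in the other controls.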

How the results depend on the processing

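Over all alternatives, 148 of 152 values of the 9 genes kept their sign and their side of the limma threshold, 4 newly passed, and none reversed. DESeq2 gave 1.05 for Chil3, 0.71 for Plac8 and 0.36 for Ace (log2; adjusted p = 0.0286, 0.0188 and 0.0134), so 3 members passed instead of 0. With 1 library left out, 0 to 1 member passed, and Vcan ranged from 0.38 to 0.68 on the log2 scale (limma adjusted p 0.0348 to 0.393), passing only without control replicate 1. The number of members without overlap, 3 with all libraries, was 3 to 5 in these fits. It was 5 without control replicate 1 (Vcan and Spn added), control replicate 4 (Ms4a4c and Fn1) or knockout replicate 4 (Ly6c2 and Ms4a4c). With fewer libraries any gene more easily lacks overlap, and the share over all genes was not computed for these fits. The higher counts therefore say nothing particular about the 9 genes. Of all genes 573 passed limma, 1557 passed DESeq2, and 163 to 502 passed with 1 library left out, fewest without control replicate 3. The count fell by over 1.5 times without any library other than control replicate 2. With equal totals the all-gene median was 0.06 rather than 0.00, which shifts every difference alike, and 50.1% of calls were higher rather than 34.2%. With a replicate block 7 genes and none of the 9 passed, and of the listed genes said to have risen or fallen S100a4 alone passed, but same-numbered libraries did not deviate together (r of -0.29 to -0.04), so the numbers do not pair the samples. The block gives no value for overlap, and a mean of at least 50 none for Chil3. Depth limits Chil3 most, and with 4 samples a group a p above the threshold does not show equal levels.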

Other observations

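Lists that bear on none of the 9 genes directly were also counted. Of 6 mesothelial markers, Upk1b, a membrane plaque protein, rose in limma from 21.2 ± 5.63 to 46.6 ± 6.67 normalized counts (log2 difference 1.12, adjusted p = 0.0328), on 16 to 49 reads in a library. The call was lost in 7 of 8 fits with 1 library left out, all but that without control replicate 2 (adjusted p up to 0.0896), and under quantile normalization (adjusted p = 0.0548). Of 8 markers of serous cavity macrophages none passed limma (2 higher at an unadjusted p under 0.05, 0 in edgeR and DESeq2), and their summed level was 6467 to 11685 in controls and 7569 to 11642 in knockouts. Of the 10 macrophage markers all had a negative difference (median -0.36), also under equal totals and quantile normalization, and Cd68, Itgam and Csf1r fell in limma. Of these 3 calls, 2 remained with equal totals (Csf1r lost, adjusted p = 0.0594) and 1 with quantile normalization (Csf1r and Cd68 lost, adjusted p = 0.0825 and 0.0564). Csf1r was named after its values were seen. Itgam, a partner chain of Itgb2, fell from 19876 ± 1400 to 14328 ± 767 (log2 difference -0.47, limma adjusted p = 0.0103) and held with any 1 library left out. The Cd68 call was lost in 3 of 8 such fits (without control replicate 3, knockout replicate 1 or knockout replicate 4) and the Csf1r call in all but that without control replicate 2.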
